A study of Mus musculus with 24 samples.

Results

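The neuronal and glial intermediate filament genes on the array were the 3 neurofilament subunits *Nefl*, *Nefm* and *Nefh*, the peripheral neuronal filament *Prph*, the neuronal filament *Ina*, and *Vim* and *Nes*, which are known from glia, other non-neuronal cells and immature cells. They were chosen by gene name, and every non-control probe carrying one of these names was used, which gave 11 probes for 7 genes, out of 41174 probes and 27398 gene names. *Nefl*, *Nefh*, *Ina* and *Vim* had 2 probes each, and the brighter probe stood for the gene unless the other is named.

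Intermediate filaments are the cytoskeletal polymers that give cells their mechanical strength. In large axons the light, medium and heavy neurofilament subunits co-assemble, with peripherin and alpha-internexin as further partners, and fill the axon to set its caliber, while Schwann cells, satellite glia and fibroblasts build their filaments from vimentin. After a peripheral axon is cut, sensory neurons of the dorsal root ganglion (DRG) are known to turn from maintaining a caliber to regrowing an axon, and neurofilament expression is a classical readout of that turn.

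The samples were L4 and L5 DRGs from adult male C57BL/6J mice, either *Nfil3* -/- (KO; made with a Cre driven by a human CMV promoter) or *Nfil3* +/+ littermates (WT), at day 2 or day 5 after the left sciatic nerve was transected and its ends coaptated. *Nfil3* encodes a transcriptional repressor. By the study's methods control DRGs came from the non-injured side, and by that account all 6 groups of 4 samples came from operated animals. The sample titles call the controls day 0, and the methods do not say at which day they were taken. Pooling of ganglia or animals is not given in the sources used here. The 24 samples were hybridized to 12 Agilent 4x44K arrays on 3 slides, with a different sample in the Cy3 and Cy5 channel of each array and 2 samples per dye in every group.

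In each sample 54.5% to 72.3% of probes were well above background and no spot was saturated. The labels name DRG neurons as the tissue while the methods describe whole ganglia, and in these data all 6 Schwann cell markers, all 6 satellite glia markers and all 7 macrophage markers measured were well above background in all 24 samples, as were all 6 neuron markers. *Nfil3* itself lay between 8.44 and 11.09 on the log2 intensity scale in the 12 WT samples and between 2.82 and 7.59 in the 12 KO samples, 5 of which were well above background. *Atf3*, a transcription factor induced by axotomy, lay between 12.94 and 14.10 in the lesioned samples and between 7.25 and 9.98 in the controls. The 4 controls that shared an array with a lesioned sample (9.04 to 9.98) were above the 4 that shared one with another control (7.25 to 7.69). One sample, KO control replicate 4, is a control by its title but day 5 by another label field. Its *Atf3* value was 9.66, it was kept as a control, and leaving it out changed none of the counts of filament genes by genotype and day, though the averaged day 5 rise of *Vim* was lost. The summed level of the 4 skeletal muscle markers, which a ganglion should lack, ranged from 6.65 to 13.71 between samples.

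The probes were 60 bases long, and their sequences are shown because they decide which part of a transcript each value reports. Coordinates refer to mouse build mm9, as the array files give them, and no exon annotation of that build was used here. The 3 probes printed whole carry a reading frame without a stop codon along their length. So do both *Ina* probes, the brighter *Vim* probe and the *Nes* probe, so an open frame of this length does not show that a probe lies in coding sequence.
Nefm, chr14:68738193-68738252, minus strand: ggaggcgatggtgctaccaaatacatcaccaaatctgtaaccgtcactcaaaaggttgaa
Nefh dimmer probe, chr11:4839629-4839688, minus strand: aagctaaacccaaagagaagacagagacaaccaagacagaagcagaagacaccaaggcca
Prph, chr15:98887297-98887356, plus strand: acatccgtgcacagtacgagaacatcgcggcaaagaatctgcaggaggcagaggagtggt

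Of the other probes a stretch of 30 bases is shown for the genes in which probes disagreed or the position is informative. The 2 *Ina* probes start 300 bases apart, and the 2 *Vim* probes start 5466 bases apart. The dimmer *Vim* probe opens with the letters of a splice donor (capitals), and was annotated to a cDNA clone. The *Nes* probe holds the polyadenylation signal AATAAA (capitals).
Ina brighter probe, first 30 bases, chr19:47099050-47099109, plus strand: tttagcgctgaccttagacctcgtagtgta
Ina dimmer probe, first 30 bases, chr19:47099350-47099409, plus strand: gaaagaaagaaaaaagaaacaaacttttct
Vim brighter probe, first 30 bases, chr2:13504232-13504291, plus strand: gcagtttttcaggagcgcaagatagatttg
Vim dimmer probe, first 30 bases, chr2:13498766-13498825, plus strand: GTAAGTgttttgatctgtcatcctaaaaca
Nes, bases 30 to 59, chr3:87784308-87784367, plus strand: cttcctcccttgAATAAAgctgtagcccta

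The lesion changed 6 of the 7 genes. Over both genotypes and both days, the 3 neurofilament subunits and *Prph* fell, *Ina* and *Vim* rose, and *Nes* did not pass the test (limma's F test, Benjamini-Hochberg adjusted over all probes; 25.2% of all probes passed it). The adjusted p-values were 0.00561 for *Nefl*, 2.72e-05 for *Nefm*, 2.84e-06 for *Nefh*, 0.023 for *Prph*, 2.1e-05 for *Ina*, 0.00193 for *Vim* and 0.288 for *Nes*. *Prph* no longer passed with processed signals (adjusted p = 0.127), without KO control replicate 3 (0.0542) or without the 4 controls that shared an array with a lesioned sample (0.194), and *Vim* was also lost in the last (0.082). Counted by probe, 8 of 11 passed, and the 2 dimmer probes of *Ina* and *Vim* and the probe of *Nes* did not.

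**Figure D1:**
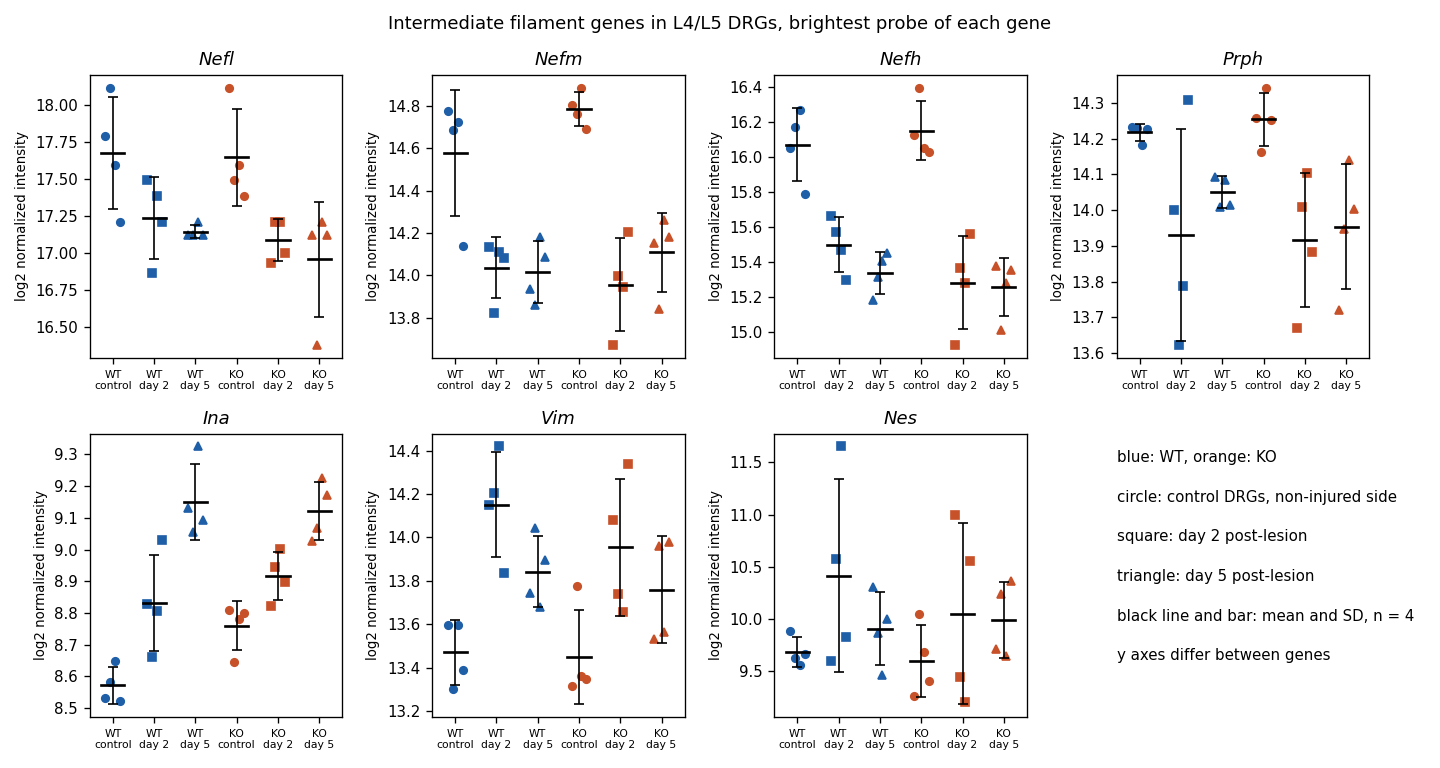
Log2 normalized intensity of the brightest probe of each gene (y axis, scale differs between genes) in the 6 groups of 4 samples (x axis). Points are samples, blue for WT and orange for KO, and black lines and bars are the mean and SD. All 16 lesioned samples lie below all 8 controls for Nefh, while for Nes the day 2 samples spread from 9.21 to 11.65 around the controls.

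*Nefm* and *Nefh* fell at both days in both genotypes, and *Nefl* fell at both days with the genotypes averaged. *Nefh*, the heavy subunit whose long tail spaces neighbouring filaments, fell by 0.72 ± 0.10 (SE) on the log2 scale at day 2 and by 0.81 ± 0.10 at day 5, means of WT and KO, which left it 39.2% and 43.0% lower (adjusted p = 1.5e-05 and 2.53e-06 by limma). Its log2 intensity in the WT controls was 16.05, 16.17, 16.27 and 15.79, against 15.66, 15.57, 15.47 and 15.30 at day 2 and 15.18, 15.31, 15.41 and 15.46 at day 5. In KO the controls read 16.13, 16.39, 16.05 and 16.03, against 14.93, 15.37, 15.28 and 15.56 at day 2 and 15.38, 15.02, 15.28 and 15.36 at day 5. All 16 lesioned samples were below the lowest of the 8 controls, WT control replicate 4 at 15.79. Each of the 4 comparisons of a genotype and day with its own control passed on its own, with differences of -0.57 and -0.73 in WT and -0.87 and -0.89 in KO. The dimmer *Nefh* probe, 711 bases away, fell by 0.57 ± 0.12 and 0.70 ± 0.12, and it overlapped its controls in WT at day 2 alone.

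*Nefm*, the medium subunit, fell by 0.69 ± 0.10 at day 2 and by 0.62 ± 0.10 at day 5, which is 37.9% and 35.0% lower (adjusted p = 3.28e-05 and 7.88e-05 by limma). Its WT controls read 14.77, 14.69, 14.72 and 14.14, against 14.13, 13.82, 14.11 and 14.08 at day 2 and 13.93, 13.86, 14.18 and 14.09 at day 5. The KO controls read 14.80, 14.76, 14.89 and 14.69, against 13.67, 13.998, 13.95 and 14.20 at day 2 and 14.15, 13.84, 14.26 and 14.18 at day 5. WT control replicate 4 sat about level with the lesioned samples, and it alone made the WT groups overlap at day 5. It was also the sample with the fewest probes well above background, at 54.5%. The fall passed in WT at both days (-0.54 and -0.56) and in KO at both days (-0.83 and -0.68), although in WT at day 2 it no longer passed when WT control replicate 1, WT control replicate 3 or WT day 2 replicate 2 was left out (adjusted p = 0.0553, 0.0551 and 0.063). The *Nefm* probe is spotted 10 times on each array, and the SD between these spots within a sample had a median of 0.16 and a range of 0.09 to 0.19.

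*Nefl*, the light subunit on which the other subunits depend for assembly, fell by 0.50 ± 0.14 at day 2 and by 0.61 ± 0.14 at day 5 (adjusted p = 0.0152 and 0.00311 by limma). The day 2 fall was lost with processed signals (-0.29, adjusted p = 0.118) and with loess normalization (-0.37, adjusted p = 0.107). Its brighter probe was among the brightest on the array, at rank 2 to 26 of all probes in each sample, and since quantile normalization gives equal values to equal ranks, several samples share a value. The WT controls read 17.79, 18.12, 17.59 and 17.21, the day 2 samples 17.49, 16.86, 17.38 and 17.21, and the day 5 samples 17.12, 17.12, 17.21 and 17.12. The KO controls read 18.12, 17.49, 17.59 and 17.38, the day 2 samples 16.93, 17.21, 17.21 and 17.00, and the day 5 samples 17.12, 16.38, 17.21 and 17.12. The lesioned samples were below all controls of their genotype in KO and overlapped them in WT. Taken alone, only the KO day 5 difference of -0.69 passed (adjusted p = 0.0295), and it no longer passed without KO control replicate 1, KO control replicate 3 or KO day 5 replicate 2 (adjusted p = 0.117, 0.0566 and 0.125). Samples on the same array deviated together, with correlations of 0.0132 to 0.629 (median 0.432) over 12 arrays, and with the array as a random block *Nefl* passed in WT at day 5 and KO at day 2 as well (adjusted p = 0.0474 and 0.0372). The dimmer probe, with values between 13.65 and 14.33, fell by 0.30 ± 0.07 and 0.34 ± 0.07, and passed at day 5 in WT (-0.35, adjusted p = 0.0279) and in KO (-0.32, adjusted p = 0.0468).

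*Prph* encodes peripherin, a filament of peripheral neurons that is most abundant in small sensory neurons. It fell by 0.31 ± 0.09 at day 2, 19.5% lower (adjusted p = 0.0121 by limma), while the day 5 difference of -0.23 ± 0.09 did not pass (adjusted p = 0.0576). The day 2 fall was lost with processed signals (-0.26, adjusted p = 0.057) and without the 4 controls that shared an array with a lesioned sample (-0.31, adjusted p = 0.101). The WT controls read 14.23, 14.23, 14.18 and 14.23, the day 2 samples at 14.001, 13.62, 13.79 and 14.31, and the day 5 samples at 14.09, 14.01, 14.09 and 14.01. In KO the controls read 14.26, 14.16, 14.34 and 14.25, the day 2 samples at 13.67, 14.01, 14.10 and 13.88, and the day 5 samples at 13.72, 13.95, 14.14 and 14.004. Of the 16 lesioned samples 15 were below the lowest control, and WT day 2 replicate 4 was the exception. No single comparison of a genotype and day passed, with differences from -0.34 to -0.17. *Prph* correlated with the summed skeletal muscle markers at r = -0.51 (rho -0.56; adjusted permutation p = 0.0339 and 0.0167), at -0.35 without the 2 samples farthest from the median sum, at 0.10 within the controls and at -0.53 within the lesioned samples (adjusted p = 0.83 and 0.185). KO day 5 replicate 1, highest in that sum at 13.71, and KO day 2 replicate 1, at 11.11, were the lowest samples of their groups in *Prph*, while KO day 2 replicate 4 and WT control replicate 1, at 12.60 and 11.12, were not. With the summed Schwann cell markers r was -0.61 (rho -0.55; adjusted permutation p = 0.00799 and 0.0197), and -0.59 within the lesioned samples (adjusted p = 0.15).

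*Ina* encodes alpha-internexin, a neuronal filament that is otherwise best known from developing and central neurons. It was the one neuronal filament to rise, by 0.21 ± 0.06 at day 2 and by 0.47 ± 0.06 at day 5, which is 15.5% and 38.6% higher (adjusted p = 0.0158 and 6.16e-06 by limma). The day 2 rise no longer passed without the 4 controls that shared an array with a lesioned sample (0.22, adjusted p = 0.0824). The WT controls read 8.53, 8.58, 8.65 and 8.52, against 8.83, 8.66, 8.81 and 9.03 at day 2 and 9.13, 9.05, 9.33 and 9.09 at day 5. The KO controls read 8.81, 8.65, 8.78 and 8.80, against 8.82, 8.94, 9.001 and 8.90 at day 2 and 9.03, 9.07, 9.23 and 9.17 at day 5. In both genotypes every lesioned sample was above every control of its genotype, and every day 5 sample above every day 2 sample. *Ina* was also the 1 gene of 7 that differed between day 5 and day 2, by 0.26 ± 0.06 (adjusted p = 0.0169, against 3.08% of all probes called). By single comparison it passed at day 5 in WT (0.58) and in KO (0.36). The dimmer *Ina* probe differed by 0.26 ± 0.13 and 0.33 ± 0.13 without passing (adjusted p = 0.173 and 0.0825). Its correlation with the brighter probe over the 24 samples was 0.27, and that of their deviations from the group means was -0.36. The same 2 correlations were 0.78 and 0.65 for the *Nefl* probe pair, and 0.76 and 0.21 for the *Nefh* pair. Averaged over its 2 probes, *Ina* no longer differed between the days (0.16, adjusted p = 0.265).

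**Figure D2:**
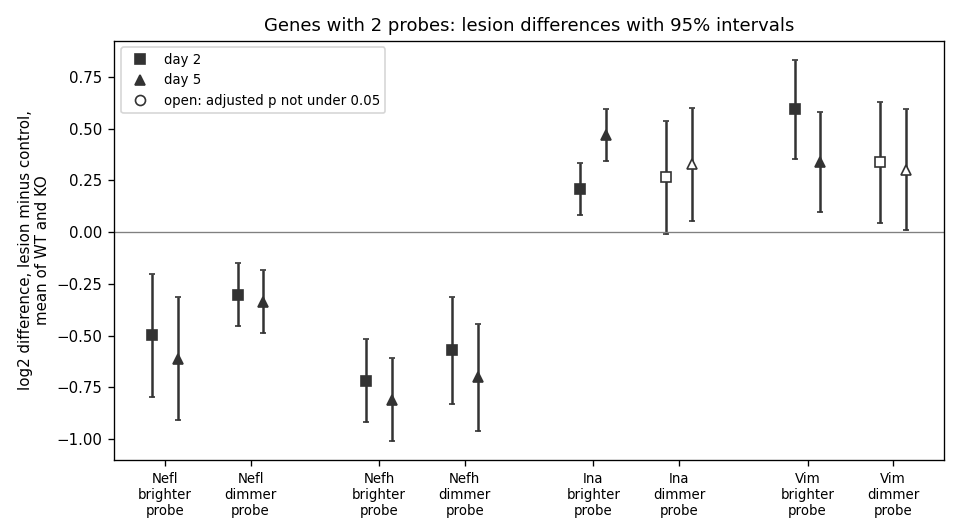
Log2 difference between lesioned and control DRGs, mean of WT and KO (y axis), for both probes of the genes that have 2 (x axis). Squares are day 2, triangles day 5, bars 95% intervals, and open symbols did not pass the adjusted threshold. Both probes of Nefl and Nefh fell, while for Ina and Vim the dimmer probes differed in the same direction as the brighter ones without passing.

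*Vim* encodes vimentin, the main filament of Schwann cells, fibroblasts, macrophages and endothelium. It rose by 0.59 ± 0.12 at day 2 and by 0.34 ± 0.12 at day 5, 50.8% and 26.6% higher (adjusted p = 0.000789 and 0.0383 by limma). The WT controls read 13.60, 13.30, 13.60 and 13.39, against 14.15, 14.20, 14.42 and 13.83 at day 2 and 13.75, 14.04, 13.68 and 13.90 at day 5. The KO controls read 13.32, 13.78, 13.36 and 13.35, against 14.08, 13.74, 13.66 and 14.34 at day 2 and 13.53, 13.96, 13.56 and 13.98 at day 5. The WT groups did not overlap, while in KO control replicate 2 lay among the lesioned samples. By single comparison *Vim* passed in WT at day 2 (0.68, adjusted p = 0.00959) and missed in KO at day 2 (0.50, adjusted p = 0.0523), where it passed with the array as a random block or the slide as a block (adjusted p = 0.0407 and 0.0368). Day 5 was lower than day 2 by a difference of -0.25 ± 0.12 that did not pass (adjusted p = 0.303). The day 5 rise passed narrowly, and it was lost without WT control replicate 2 or 4, WT day 5 replicate 2 or 4, KO control replicate 1, 3 or 4, or KO day 5 replicate 2 or 4, each left out alone (adjusted p = 0.0656 to 0.0843). The controls that shared an array with a lesioned sample read 13.30 to 13.39, and the other controls 13.36 to 13.78. Without the former the WT day 2 rise was 0.56 and the averaged day 5 rise 0.22, and neither passed (adjusted p = 0.163 and 0.405). The dimmer *Vim* probe did not pass limma's lesion F test (adjusted p = 0.148). It correlated with the brighter probe at 0.20, and their deviations from the group means correlated at -0.29.

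*Nes* encodes nestin, a filament of precursor cells that is also made by Schwann cells and by endothelium. Its differences were 0.59 ± 0.28 at day 2 and 0.31 ± 0.28 at day 5, and neither passed (adjusted p = 0.151 and 0.526 by limma). The WT controls read 9.89, 9.62, 9.56 and 9.67, against 9.60, 10.58, 11.65 and 9.83 at day 2 and 10.31, 9.86, 9.47 and 9.997 at day 5. The KO controls read 9.26, 10.05, 9.69 and 9.41, against 11.00, 9.44, 9.21 and 10.56 at day 2 and 9.71, 10.24, 9.64 and 10.37 at day 5. At day 2 the samples of each genotype divided, with 2 of 4 above all controls of their genotype and the others among or below them. The SD of *Nes* between samples was 0.92 in WT at day 2 and 0.87 in KO at day 2, against a median SD of 0.20 between the 10 spots of the probe within a sample.

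**Figure D3:**
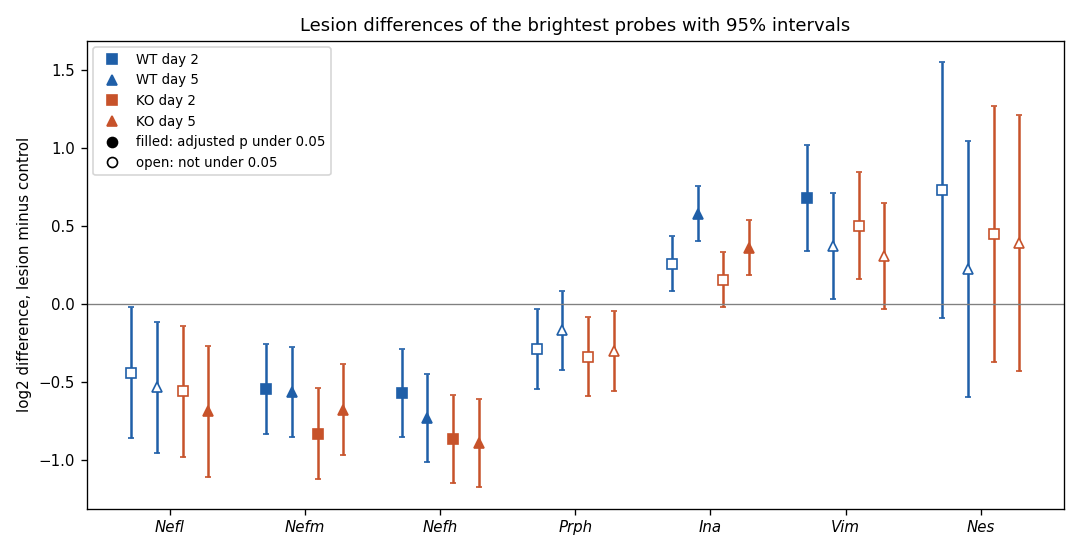
Log2 difference between lesioned and control DRGs (y axis) of the brightest probe of each gene (x axis), with 95% intervals, for WT (blue) and KO (orange) at day 2 (squares) and day 5 (triangles). Filled symbols passed the adjusted threshold, as all 4 do for Nefm and Nefh, whereas the Nes intervals all include 0.

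Counted by genotype and day, 3 of 7 genes passed in WT at day 2 (*Nefm* and *Nefh* lower, *Vim* higher; 9.99% of all probes passed, 4.95% lower and 5.04% higher) and 3 of 7 at day 5 (*Nefm* and *Nefh* lower, *Ina* higher; 12.9%, 6.93% lower and 5.93% higher). In KO 2 of 7 passed at day 2 (*Nefm* and *Nefh*, both lower; 10.9%, 5.82% lower and 5.09% higher) and 4 of 7 at day 5 (*Nefl*, *Nefm* and *Nefh* lower, *Ina* higher; 11.7%, 6.11% lower and 5.56% higher). With the genotypes averaged, 6 of 7 passed at day 2 (21.2%) and 5 of 7 at day 5 (22.2%). The median difference over the 7 genes was -0.31 at day 2 and -0.23 at day 5, beside -0.02 and -0.04 over all probes. The lesioned samples of a genotype and day did not overlap their controls for 4 of 7 genes in WT at day 2 (15.4% of all probes), 4 at day 5 (18.8%), and in KO for 5 at day 2 (13.5%) and 5 at day 5 (19.2%). Within slides, where a control and a lesioned sample of 1 genotype shared the slide, *Nefl*, *Nefm*, *Nefh* and *Prph* were lower after lesion in 9 of 9 comparisons each, *Ina* and *Vim* higher in 9 of 9, and *Nes* higher in 8 of 9. Within dyes each of these signs held in 8 of 8 comparisons, *Nes* included. These comparisons are not independent, since the same controls serve both days and some set 1 sample against 1. Those within dyes are parts of the differences already given. Such signs were not counted over all probes, so these counts only describe the 7 genes.

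The KO was compared with WT to ask whether the repressor shapes this response, and no filament gene passed. By limma, 0 of 7 genes differed between KO and WT in control DRGs (0% of all probes), at day 2 (0.0121%) or at day 5 (0.0121%). The 0% in controls includes the probe of the deleted *Nfil3*, with control means of 8.65 in WT and 4.67 in KO. The comparison in controls can thus miss a large difference. Over the 21 comparisons the log2 differences ran from -0.36 (*Nes* at day 2) to 0.21 (*Nefm* in controls). One had an unadjusted p under 0.05, *Ina* in controls at 0.19 ± 0.08. Of all 41174 probes, 724 had such a p in controls, 1577 at day 2 and 1018 at day 5. For the 6 genes other than *Nes* the 95% intervals lay between -0.61 and 0.50, and for *Nes* they reached from -1.19 to 0.91. In limma's F test of the time*genotype interaction 0 of 7 genes had an unadjusted p under 0.05, against 919 of 41174 probes. The smallest was 0.219 for *Ina*, and 0 of 7 genes passed this test. No probe on the array passed it (0%), that of the deleted *Nfil3* included, although its lesion differences were 1.87 and 2.26 in WT and 0.00013 and -0.25 in KO, so that this test gave no ground for calling the responses of the genotypes alike. For *Nefh* the KO response minus the WT response was -0.30 ± 0.19 at day 2 and -0.16 ± 0.19 at day 5, neither of which passed.

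RefSeq promoter sequences (GRCm38.p6) were at hand for 4 of the 7 genes, *Prph*, *Ina*, *Vim* and *Nes*, from 250 bases before to 50 bases after the start. They were searched on both strands for the core of the NFIL3 site (TTANGTAA), an AP-1 site (TGANTCA), the core of the cAMP response element (TGACG), a GC box (GGGCGG) and a TATA box (TATAAA), which 2.32%, 7.81%, 20.8%, 35.7% and 13.6% of 32851 promoters hold. The first 3 motifs were in none of the 4 windows, which are too few to read that absence as a result. *Prph* and *Vim*, of which one fell and the other rose, each held a TATA box, at 31 and 32 bases before the start, and *Prph*, *Ina* and *Nes* held GC boxes. The last 100 bases before the start of both are shown with the TATA box in capitals.
Prph, chr15:99055074-99055173, plus strand: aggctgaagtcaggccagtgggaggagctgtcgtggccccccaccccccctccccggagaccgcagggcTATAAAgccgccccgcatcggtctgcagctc
Vim, chr2:13574211-13574310, plus strand: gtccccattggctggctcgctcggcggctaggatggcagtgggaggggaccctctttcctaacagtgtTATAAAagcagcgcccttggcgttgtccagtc

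Markers of the neurons were measured beside the filament genes. Here and in the next paragraph, markers counted as risen or fallen passed the lesion F test, which 25.2% of all probes passed. Among neuron markers, *Rbfox3*, a nuclear splicing factor of mature neurons, fell by 0.81 ± 0.11 at day 2 and 0.73 ± 0.11 at day 5, and *Snap25*, a synaptic vesicle fusion protein, by 0.63 ± 0.10 and 0.76 ± 0.10. *Isl1* and *Elavl4* fell as well, *Tubb3*, the neuronal tubulin of growing axons, rose at day 5 by 0.43 ± 0.05, and *Uchl1* did not pass. Of the markers of large-diameter neurons, which are rich in neurofilament, 5 of 6 fell (median -0.64 at day 2 and -0.49 at day 5), and of those of small-diameter neurons 4 of 6 fell and *Ret* rose. The summed level of the large-diameter markers lay between 12.55 and 12.96 in the 8 controls and between 12.18 and 12.61 in the 16 lesioned samples, and that of the 6 neuron markers between 17.84 and 18.15 and between 17.85 and 18.23. The neuron sum adds intensities, so it mostly follows *Uchl1* and *Tubb3*, with mean log2 intensities of 17.38 and 15.98. The 4 neuron markers that fell, with means of 9.47 to 13.89, weigh little in it. In these bulk samples fewer cells of a type and less RNA per cell cannot be told apart.

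Markers of non-neuronal cells moved too. All 7 macrophage markers rose (median 0.66 at day 2 and 1.54 at day 5), and their summed level went from 12.87 to 13.56 in the controls to 12.55 to 14.96 after lesion. Of the 6 Schwann cell markers only *Pmp22* passed, and it rose, and the summed level of the 6 was 15.93 to 16.62 in the controls and 15.98 to 17.59 after lesion. Of the satellite glia markers *Glul* and *Cdh19* rose and *Fabp7* and *Gja1* fell. The part of these cell types in the filament results was not tested.

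*Nes* and *Vim* varied with the Schwann cell markers from sample to sample. The 4 samples highest in *Nes*, WT day 2 replicates 2 and 3 and KO day 2 replicates 1 and 4, were also the 4 highest in summed Schwann cell markers, at 17.16, 17.59, 16.91 and 16.93. Over the 24 samples the correlation of *Nes* with that sum was 0.92 (Pearson's r; Spearman's rho 0.87; permutation p = 1e-05 for both, the smallest that 100000 permutations can give, and 0.000154 and 0.000385 adjusted over 77 relations of 7 genes with 11 marker lists). It was 0.88 within the 8 controls (exact permutation p = 0.0028, adjusted p = 0.198), 0.92 within the 16 lesioned samples (adjusted p = 0.000385), and 0.85 without the 2 samples farthest from the median sum. For *Vim* r was 0.80 over all samples (rho 0.78; adjusted permutation p = 0.000154 and 0.000385), 0.84 within the controls (adjusted p = 0.215), 0.86 within the lesioned samples (adjusted p = 0.000385) and 0.71 without the 2 farthest samples. Against the satellite glia sum *Vim* ran the other way, with r of -0.65 and rho of -0.72 (adjusted permutation p = 0.00455 and 0.000866). That r was -0.79 within the controls and -0.42 within the lesioned samples (adjusted permutation p = 0.31 and 0.397). With the endothelial sum *Nes* had an r of 0.65 and a rho of 0.74 (adjusted permutation p = 0.00416 and 0.000866), and with the fibroblast sum 0.54 and 0.63 (0.023 and 0.00625). Neither relation held after adjustment within the controls, with r of 0.61 and 0.12 (adjusted permutation p = 0.682 and 0.885). Nor did either hold within the lesioned samples, with r of 0.62 and 0.59 (adjusted permutation p = 0.114 and 0.154). Samples that share an array are not fully independent, and the relations named here were picked after the values of all 77 were seen. Within the 16 lesioned samples *Ina* correlated with the satellite glia sum at 0.75 (adjusted permutation p = 0.0216) and with the Schwann cell sum at -0.71 (adjusted p = 0.0381). Day 2 and day 5 samples differ in *Ina*. The mean satellite glia sum also went from 14.97 to 15.24 in WT and from 15.02 to 15.24 in KO. These p-values thus include the difference between the days. Over the 24 samples, deviations from the group means correlated at 0.37 and -0.63. The part of Schwann cell or glial content in these values was not tested.

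**Figure D4:**
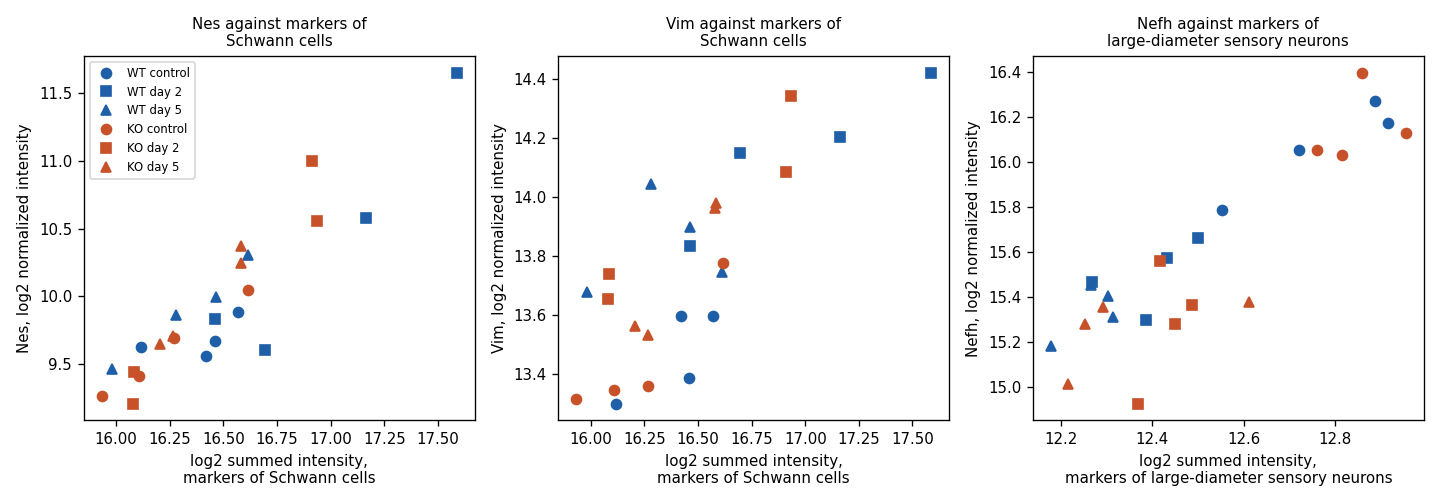
Log2 intensity of Nes, Vim and Nefh (y axes) against the log2 summed intensity of marker genes (x axes), for Schwann cells in the first 2 panels and large-diameter sensory neurons in the third. Each point is 1 of 24 samples, blue for WT and orange for KO, circles for controls, squares for day 2 and triangles for day 5. Among the lesioned samples Nes and Vim are higher where the Schwann cell sum is higher, the relation within the 8 controls did not hold after adjustment, and for Nefh the 8 controls form a group of their own at the upper right.

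*Nefh* correlated with the large-diameter sum at 0.77 within the 8 controls (exact permutation p = 0.0295, adjusted p = 0.379) and at 0.39 within the 16 lesioned samples (permutation p = 0.133, adjusted p = 0.464), neither of which held after adjustment. As a description of likeness over all 24 samples, which the split into controls and lesioned samples enters, the gene whose probe correlated most with each filament gene, among 21518 probes well above background throughout, was *Mtap7d2* for *Nefl* (0.84), *Lancl3* for *Nefm* (0.97), *Snap25* for *Nefh* (0.96), *Usp20* for *Prph* (0.88), *Pde4b* for *Ina* (0.94), *Zfp207* for *Vim* (0.92) and *Plekhb1* for *Nes* (0.98).

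Of 35 related genes measured, 13 passed the lesion F test, 6 higher and 7 lower, beside the 25.2% of all probes that passed it. Among 11 other cytoplasmic filaments, *Gfap*, the filament of reactive glia, rose by 1.43 ± 0.23 at day 2 and 1.22 ± 0.23 at day 5, with 16 of 16 lesioned samples and 2 of 8 controls well above background, and the epithelial keratin *Krt19* rose by 1.38 ± 0.23 at day 5 after 0.06 ± 0.23 at day 2. *Bfsp1*, a beaded filament gene of the lens, fell by 0.85 ± 0.12 and 0.59 ± 0.12, with 17 of 24 samples well above background, and *Synm*, which encodes synemin, a partner of vimentin and desmin, by 0.50 ± 0.12 and 0.53 ± 0.12. The median over this list was 0.01 at day 2 and 0.23 at day 5, beside -0.02 and -0.04 over all probes. Of the 3 lamins, which form the nuclear lamina, *Lmna* rose by 0.44 ± 0.06 and 0.18 ± 0.06 and *Lmnb1* by 0.76 ± 0.11 and 0.39 ± 0.11, and *Lmnb2* did not pass.

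Among 9 linkers and filament-binding proteins 2 passed. *Hspb1*, a small heat shock protein that binds filaments and is known to be induced by axotomy, rose by 1.24 ± 0.07 and 0.91 ± 0.07, and *Evpl*, which encodes the plakin envoplakin, fell by 1.03 ± 0.13 and 0.85 ± 0.13, while the plakins *Plec*, *Dst* and *Macf1* differed by -0.03 to 0.05. Among 12 genes for kinases, transport and turnover 5 passed, of which 4 fell. *Kif5a*, the kinesin heavy chain that carries neurofilaments along axons, fell by 0.43 ± 0.10 and 0.54 ± 0.10, and *Kif5b* by 0.54 ± 0.09 at day 5. *Cdk5r1*, the activator of the neurofilament kinase Cdk5, fell by 0.47 ± 0.08 at day 2, and *Trim2*, a ubiquitin ligase that acts on the light subunit, by 0.38 ± 0.09 and 0.35 ± 0.09.

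**Figure D5:**
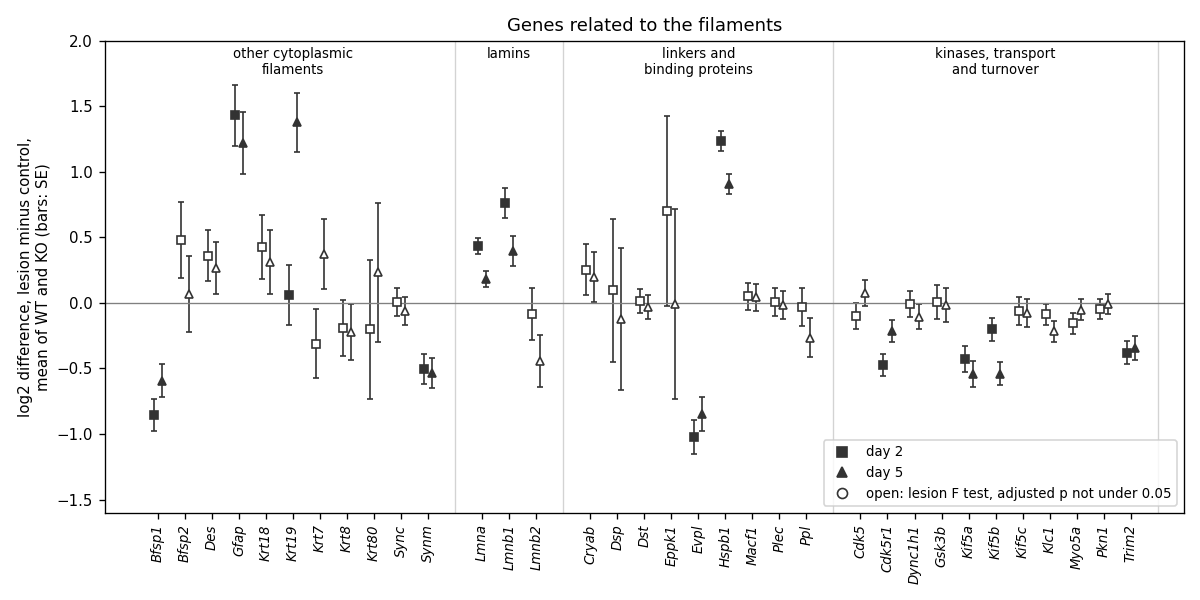
Log2 difference between lesioned and control DRGs, mean of WT and KO (y axis, bars are SE), at day 2 (squares) and day 5 (triangles) for genes related to the filaments (x axis), in 4 lists, with 1 of the 35 genes not drawn. Filled symbols passed the lesion F test, with Gfap, Krt19 and Hspb1 the furthest above 0 among them and Evpl the furthest below.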

How the data were processed

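RNA of 24 samples was measured on 2-colour Agilent arrays used as single-colour intensities. The deposited files hold the foreground and background intensity of each spot, which the authors extracted with Agilent Feature Extraction 10.7.3.1, not normalized. As in the study's methods, the Edwards background correction and quantile normalization over the 24 channels were applied, here to the mean foreground and median background. Control spots and spots marked as outliers were left out, spots of a probe were averaged on the log2 scale, and no value of the 11 probes was missing (264 values). All 24 samples and 41174 probes entered a linear model that gave each group its own mean, with lmFit and eBayes (limma 3.58.1, R 4.3.3). The threshold was an adjusted p of 0.05, and the brightest probe stood for a gene. Quantile normalization compresses the brightest probes and removes any shift of all RNA. Precision is limited by 4 samples per group, whose origin in separate animals the labels do not give, although the methods call them independent. The genes and lists were chosen with earlier results of these data known. Named genes were the 7 filament genes, Nfil3, Atf3, the gene most like each filament gene, and up to 4 genes per related list with the largest lesion change past the test and well above background in at least 12 samples. Cell type markers came from 11 lists. Other genes are named to describe a list. Replicate numbers were not used to pair the samples in the main model. Same-numbered samples had correlations of -0.585 to 0.595 (median 0.0568, 60 pairs) between their deviations from group means. Samples with other numbers had a median of -0.0351 (180 pairs). Such correlations cannot show whether samples share an animal. A control and a lesioned sample may come from the 2 sides of 1 mouse, and the model did not take such a pairing into account. The code was tested on simulated data. Of the related genes and of the Schwann cell markers, 1 each entered the counts and sums and is not reported here.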

Additional observations from a re-analysis of the deposited data

Results flagged for a closer look

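Of 66 groups of 4 values (11 probes in 6 groups), 8 held a sample whose gap to the others exceeded Dixon's critical value at the 95% level, where chance flags about 1 in 20 groups. Both control flags of lower neurofilament signal fell on WT control replicate 4, at 14.14 for Nefm (others 14.69 to 14.77) and 13.88 for the dimmer Nefl probe (others 14.22 to 14.26). The brighter Nefl probe was set apart in WT day 5 replicate 3, at 17.21 against 3 tied values of 17.12, and in KO day 5 replicate 2, at 16.38 against 17.12 to 17.21. Nefm was low in WT day 2 replicate 2, at 13.82 (others 14.08 to 14.13). Prph was low in WT control replicate 3, at 14.18, though only just under the others (14.23 each). Vim was high in KO control replicate 2, at 13.78 (others 13.32 to 13.36), a sample with the highest Schwann cell sum of the controls, 16.62. The dimmer Vim probe was low in KO day 5 replicate 1, at 4.93 (others 5.21 to 5.24).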

How the results depend on the processing

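The results were recomputed under 39 alternatives, 14 of the processing and the model, 24 that left out 1 sample each, and 1 chosen after seeing the data, without the 4 control samples that shared an array with a lesioned sample. No lesion or day difference of the 7 genes changed its direction. Of these 1911 values, 28 no longer passed and 45 passed only under the alternative. The 4 differences of Nefh passed under all 39, those of Nefm under all except WT at day 2. The number of genes that passed in KO at day 2 was 4 in place of 2 without background correction, with normexp background and with the array as a random block (correlation 0.27), and 2 to 4 with single samples left out (4 without WT day 2 replicate 4 or KO day 2 replicate 3). It was 2 to 4 in WT at day 2, 3 to 4 in WT at day 5 and 3 to 4 in KO at day 5. With the mean of the probes of a gene, 0 genes differed between day 5 and day 2, in place of 1. Differences between KO and WT and interactions stayed at 0 genes, and related genes that passed numbered 12 to 14. Nefl in KO at day 5 did not pass with processed signals (-0.47, adjusted p = 0.105), median foreground (0.0553) or loess normalization (0.153). With the replicate number as a block, 4 genes passed in WT at day 2 (Ina added, adjusted p = 0.0401), 3 in WT at day 5, 2 in KO at day 2 and 4 in KO at day 5, and Vim at day 5 was lost (adjusted p = 0.0522). Whether equal numbers stand for the same animal is not given. Without the 4 controls, the lesion F test called 4 of 7 genes (Prph and Vim lost) and Nefm and Nefh still passed in all 4 comparisons. Signal over background limits the dimmer Vim probe, which was well above background in 21 of 24 samples.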
